A study of Mus musculus with 2 samples.

Results

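The genes described here are 10 transcription factors that direct endothelial identity: Prox1, Nr2f2, Sox17, Sox18, Sox7, Foxc2, Gata2, Erg, Fli1 and Tal1. They were taken by gene symbol from the count matrices of the study, and all 10 were present among its 32285 genes. Blood and lymphatic vessels share an endothelial programme that depends on ETS, GATA and basic helix-loop-helix factors. Vein identity depends on the nuclear receptor NR2F2 (COUP-TFII), artery identity on SOXF and Notch activity, and the lymphatic fate on PROX1, which SOX18 and NR2F2 help to switch on in embryonic veins. In a lymph node the high endothelial venules, through which lymphocytes leave the blood, are a specialised part of the venous tree, while lymphatic endothelium lines the sinuses that carry lymph.

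Endothelial cells sorted from mouse lymph nodes were profiled in 2 droplet single-cell RNA libraries. Each library mixed 4 hashtagged pools, in which WT and Xbp1-KO mice each gave cells of peripheral and of mesenteric nodes. Every pool, WT included, came from tamoxifen-treated mice, so each group of tissue and genotype has 2 pools, 1 per library. The protein made from Xbp1 switches on genes for protein folding and secretion. The labels name neither a Cre driver nor the number, age or sex of the animals, and say that peripheral nodes were pooled, so p-values measure the spread between these pools, which may be technical.

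The libraries held 33024170 and 14744778 UMIs (captured RNA molecules) in 7709 and 2903 barcodes, with 3 barcodes in common. After filtering, 9275 cells remained, 8361 of them in named endothelial classes. Classes were named by resemblance to marker genes that did not include the 10 factors, and comprised 3701 lymphatic-like, 3192 capillary-like, 718 arterial-like, 495 high endothelial-like, 148 tip-like and 107 venous-like cells. The shorter names without "like" are used from here on. At a level of 10 CPM or more, lymphatic, capillary, arterial, venous and tip cells held all of their own markers, and high endothelial cells 6 of 7, with Spon2 at 0 in peripheral pools. Levels are CPM, the UMIs of a gene per 1000000 UMIs of the summed cells of a pool. Only sums of at least 5 cells are given: 8 pools for most classes, 7 for tip and 5 for venous cells. Xbp1 was lower in Xbp1-KO than in WT pools on average in the 4 largest classes: in high endothelial cells 149 to 315 CPM against 299 to 497 CPM, and in lymphatic cells 47.2 to 54.3 against 56.9 to 122 CPM. Xist, a transcript of the inactive X chromosome, stood at 947 to 1174 CPM in lymphatic cells of the Xbp1-KO pools of library 1 and at 2.99 and 3.46 CPM in its WT pools. Library 2 was the reverse, with 818 and 1123 CPM in WT and 0.0 and 1.92 CPM in Xbp1-KO cells, so the genotype carrying Xist differed between the libraries. The 2 pools of each tissue and genotype thus differed in Xist as well as in library, and the spread between them holds both.

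RefSeq promoter windows on GRCm38.p6 were at hand for 5 of the 10 genes, and the pair that marked lymphatic cells most strongly is shown as the 250 bases before the annotated start. The capitals mark GGAA and its complement TTCC, the core letters that ETS factors such as ERG and FLI1 recognise. The Prox1 window, the first of 2 listed for that gene, lies at chr1:190170828-190171077 (minus strand) and the Nr2f2 window at chr7:70366747-70366996 (minus strand), each written in the direction of its gene.
Prox1: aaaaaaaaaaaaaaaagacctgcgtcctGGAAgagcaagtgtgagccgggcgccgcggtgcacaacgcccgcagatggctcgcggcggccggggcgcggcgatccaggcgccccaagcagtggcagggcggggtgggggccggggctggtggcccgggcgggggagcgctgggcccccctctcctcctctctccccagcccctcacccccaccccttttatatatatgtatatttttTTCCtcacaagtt
Nr2f2: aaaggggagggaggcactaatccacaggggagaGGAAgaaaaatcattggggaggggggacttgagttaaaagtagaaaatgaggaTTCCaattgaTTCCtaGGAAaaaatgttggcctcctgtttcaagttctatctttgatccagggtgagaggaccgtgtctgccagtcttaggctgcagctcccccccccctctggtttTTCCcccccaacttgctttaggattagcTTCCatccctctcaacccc
Searched on both strands, with matches of different motifs free to overlap, the Prox1 window held 2 GGAA matches and the Nr2f2 window 6. The second Prox1 window, which is not printed, held 5 GGAA and 0 CANNTG matches. GGAA occurs in 93.4% of 32851 promoter windows of this length. The E-box CANNTG, recognised by TAL1 with its partners, was found 2 times for Prox1 and 1 time for Nr2f2 (66.2% of windows hold it). GATA was found 0 times and 1 time (53.6% of windows), and neither window held ACAAT (27.7% of windows), a core read by SOX factors, or AGGTCA (14.0% of windows), a half-site of nuclear receptors. These matches describe letters and not binding.

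Prox1, the homeobox factor that sets and maintains lymphatic identity (ENSMUSG00000010175, chromosome 1, 190118035 to 190170714, minus strand, GRCm38), was a lymphatic gene in every pool. In WT peripheral, Xbp1-KO peripheral, WT mesenteric and Xbp1-KO mesenteric lymphatic cells it stood at 731, 849, 638 and 628 CPM in library 1 and at 691, 691, 567 and 661 CPM in library 2. In the 5 blood endothelial classes no pool exceeded 38.2 CPM, and the class medians lay between 0.0 and 7.75 CPM. When each cell was thinned to 1500 UMIs, 58.8% of lymphatic cells had a Prox1 UMI (95% exact binomial interval 57.2% to 60.4%, 86.8% before thinning), against 0.685% to 1.87% in the blood endothelial classes. Stromal cells, which should lack it, gave 1.72% (2 of 116, 95% exact binomial interval 0.209% to 6.09%). Their median depth was 3924 UMIs against 5255 UMIs in lymphatic cells. The Prox1 shares of the blood endothelial classes lay within that interval, which is too wide to fix a background level. Its antisense neighbour Prox1os overlaps it on the other strand and gave 0 to 12 UMIs per lymphatic pool.

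Nr2f2, the venous and lymphatic nuclear receptor (ENSMUSG00000030551, chromosome 7, 70351944 to 70366735, minus strand), formed a graded order. Its median was 591 CPM in lymphatic cells (472 to 664), 305 CPM in venous cells (210 to 329) and 120.5 CPM in high endothelial cells (24.9 to 202). It was 32.8 CPM in capillary (19.6 to 53.3), 16.8 CPM in arterial (0.0 to 26.7) and 15.5 CPM in tip cells (0.0 to 73.1). The lymphatic range did not overlap the venous one, nor the venous the high endothelial one; below that, neighbouring classes overlapped. Of the 5 venous pools 4 were mesenteric, while the 8 high endothelial pools fell into separate peripheral and mesenteric levels given further on, so these medians rest on different mixes of tissue. Among lymphatic cells, 2799 of 3701 (75.6%) held UMIs of both Prox1 and Nr2f2, against 9 of 495 (1.82%) high endothelial cells and 3 of 107 (2.80%) venous cells. Stromal cells also carried Nr2f2, in 42.2% of thinned cells.

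Foxc2, a forkhead factor of collecting vessels and lymphatic valves (ENSMUSG00000046714, chromosome 8, 121116171 to 121118895, plus strand), was the other gene found almost only in lymphatic cells. It stood at 43.9 to 77.8 CPM in the 8 lymphatic pools (median 57.9), and its median in the blood endothelial classes was 0.0 to 0.503 CPM. Thinned lymphatic cells had a Foxc2 UMI in 8.37% of cases, against 0.0693% in capillary cells, 2.80% in venous cells (3 of 107) and 0 of 116 stromal cells (95% exact binomial upper limit 3.13% of cells with a UMI). Before thinning, 3 of 121 stromal cells (2.48%) had one. Foxc2 lies within the annotated span of Gm20388 on the same strand, so its counts could be incomplete if shared reads were discarded.

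**Figure D1:**
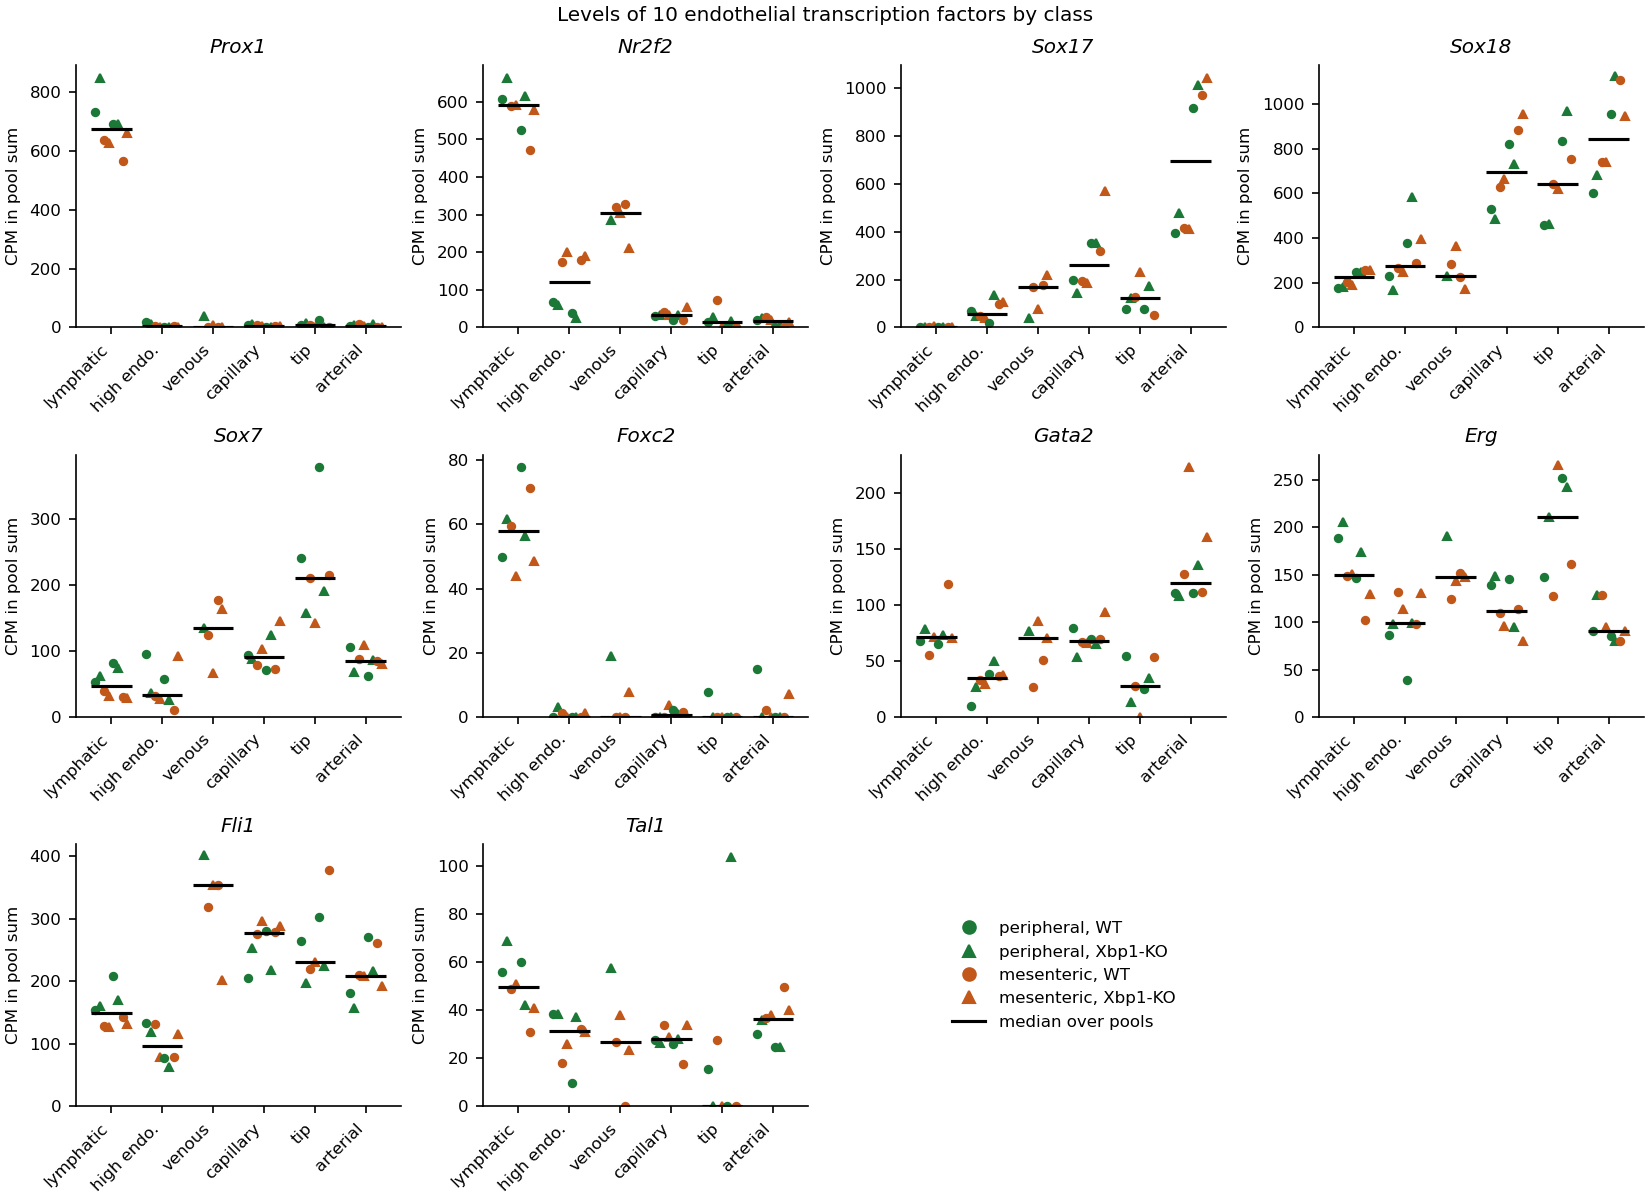
Level of each of the 10 factors in CPM of the pool sum (linear axes from 0, a separate scale for each gene) in 6 endothelial classes. Points are pools (n = 8, 7 for tip and 5 for venous cells), coloured by tissue and shaped by genotype, and bars are medians: Prox1 and Foxc2 stand out in lymphatic cells, Nr2f2 falls from lymphatic through venous to high endothelial cells, and Sox17 and Sox18 are highest in arterial cells.

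The SOXF genes Sox17, Sox18 and Sox7 encode closely related HMG-box factors, and they showed 3 different patterns. Sox17 (ENSMUSG00000025902, chromosome 1, 4490931 to 4497354, minus strand), a factor of arterial specification, was at a median of 698.5 CPM in arterial cells (396 to 1045). It was at 260 CPM in capillary (145 to 569), 168 CPM in venous, 123 CPM in tip and 57.6 CPM in high endothelial cells (19.3 to 137). In lymphatic cells it was at 1.47 CPM (0.0 to 6.94), and no lymphatic pool overlapped a pool of the other 5 endothelial classes. Stromal pools ranged from 0.0 to 165 CPM. Of thinned arterial cells 50.5% had a Sox17 UMI, against 9.31% of high endothelial cells, 8.62% of stromal cells and 0.191% of lymphatic cells. The high endothelial share was close to the stromal share, while the lymphatic share was below both.

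The arterial and capillary levels of Sox17 followed the library. In WT peripheral, Xbp1-KO peripheral, WT mesenteric and Xbp1-KO mesenteric arterial cells Sox17 was at 396, 477, 416 and 413 CPM in library 1, and at 920, 1014, 973 and 1045 CPM in library 2. Every library 2 pool was above every library 1 pool, and 12.0% of the genes tested in arterial cells separated by library without overlap in one direction or the other. In capillary cells, where 14.4% of genes separated, the libraries did not overlap either, at 145 to 199 CPM in library 1 and 321 to 569 CPM in library 2. The libraries differ in capture and in depth, and the part of each in this difference cannot be told apart. Both libraries held arterial pools with Xist, at 453 and 436 CPM in Xbp1-KO of library 1 and at 392 and 506 CPM in WT of library 2. The other arterial pools of both libraries had Xist at 0.0 to 12.3 CPM. The part of Xist or sex was not tested. Within each library alone, arterial cells still had the highest median of Sox17.

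Sox18 (ENSMUSG00000046470, chromosome 2, 181669836 to 181671640, minus strand), which acts upstream of Prox1 in the embryo, was the broadest of the 3 genes. Its median was 843 CPM in arterial, 697 CPM in capillary and 639.5 CPM in tip cells, and lower in high endothelial (276.5 CPM), venous (230 CPM) and lymphatic cells (225 CPM). Neighbours in that order overlapped throughout. Here too library 2 was above library 1 in every pool of the 4 largest classes: 246 to 257 against 178 to 203 CPM in lymphatic cells and 947 to 1125 against 602 to 740 CPM in arterial cells. Separation by library was seen for 6.64% of genes in lymphatic and 8.27% in high endothelial cells. Of the other members, Gata2 in high endothelial cells was likewise higher in library 2 (36.8 to 49.8 against 9.56 to 32.6 CPM), and Nr2f2 in arterial cells was lower (0.0 to 14.6 against 19.0 to 26.7 CPM). Sox17 and Sox18 were found in the same cell in 380 of 718 arterial cells (52.9%) and in 14 of 3701 lymphatic cells (0.378%).

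Sox7 (ENSMUSG00000063060, chromosome 14, 63943673 to 63950732, plus strand), a factor of early vessel and blood specification, led in tip cells with a median of 210 CPM (141.5 to 378.5). It was at 134 CPM in venous (66.8 to 177), 90.5 CPM in capillary, 85.4 CPM in arterial, 46.2 CPM in lymphatic and 33.5 CPM in high endothelial cells (11.2 to 95.6), with overlap between all neighbours. Tip cells exceeded capillary cells in each of the 7 pools where both could be measured. They were also the cells in which Sox7 and Sox18 were most often counted together (48 of 148, 32.4%). This and the other counts of 2 factors in 1 cell were made before thinning, so they depend on depth. Median depth was 3526 UMIs in tip, 2612 in capillary and 2301.5 in arterial cells. It was 4051 in venous, 5255 in lymphatic and 7624 in high endothelial cells.

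The remaining 4 factors are shared endothelial regulators, and none was restricted to a class. Gata2, a zinc-finger factor that also acts in blood stem cells and lymphatic valves (ENSMUSG00000015053, chromosome 6, 88193891 to 88207032, plus strand), was at a median of 119 CPM in arterial cells (108 to 223), 71.0 CPM in lymphatic, 70.1 CPM in venous and 68.1 CPM in capillary cells. It was lowest in high endothelial (34.7 CPM, 9.56 to 49.8) and tip cells (27.4 CPM). The high endothelial range lay below the capillary range without overlap.

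The ETS factors Erg and Fli1 sustain endothelial gene expression together. Erg (ENSMUSG00000040732, chromosome 16, 95359169 to 95586593, minus strand) ran from a median of 90.6 CPM in arterial to 149 CPM in lymphatic and 211 CPM in tip cells, and all neighbouring ranges overlapped. Fli1 (ENSMUSG00000016087, chromosome 9, 32422204 to 32542861, minus strand) ran from 97.0 CPM in high endothelial cells (62.2 to 134) and 148 CPM in lymphatic cells to 277 CPM in capillary and 353 CPM in venous cells (202 to 402). Erg and Fli1 were thus in different orders: lymphatic cells ranked next to the top for Erg and next to the bottom for Fli1. Tal1, a basic helix-loop-helix factor of blood and endothelium (ENSMUSG00000028717, chromosome 4, 115056426 to 115071755, plus strand), had its highest median in lymphatic cells, 49.8 CPM (30.8 to 68.9), followed by 36.5 CPM in arterial and 31.6 CPM in high endothelial cells, with overlap.

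The lymphatic class held 6 clusters. Foxc2, Sox7, Sox18, Fli1, Nr2f2, Prox1 and Gata2 had ranges that did not overlap in at least 1 pair of these clusters. How many of all genes did so was not counted, so this does not set the factors apart from other genes. The clusters are named by their leading genes: Ackr4 and Gdf10 (991 cells; Ackr4 marks the sinus ceiling), Ccl20 and Coch (580 cells; markers of the sinus floor), Marco and Lyve1 (507 cells; medullary sinus), Mrc1 and Ptx3 (403 cells), Igfbp5 and Nts (510 cells), and Postn and C1ql3 (710 cells). Foxc2 was at 112 CPM (87.2 to 181) in the Ackr4 cluster and 110 CPM (82.5 to 216) in the Nts cluster, against medians of 7.46 to 24.1 CPM in the other 4, and no pool of those 4 exceeded 50.1 CPM. Sox7 was highest in the same pair of clusters, at 91.0 and 75.1 CPM, and lowest in the Ccl20 and Coch cluster at 11.3 CPM (0.0 to 17.7). Fli1 was at 268 and 200 CPM there and at 62.7 CPM in the Ccl20 and Coch cluster (25.5 to 70.6).

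The order of the clusters was another for Nr2f2. It was highest in the Marco cluster (908 CPM, 684 to 1074), the Ptx3 cluster (743 CPM) and the Postn cluster (741 CPM), intermediate in the Ccl20 and Coch (477 CPM) and Ackr4 clusters (448 CPM), and lowest in the Nts cluster (374 CPM, 336 to 429). Prox1 had medians from 554 CPM in the Ccl20 and Coch cluster to 843 CPM in the Postn cluster, where its range of 731 to 1264 CPM lay above that of the Nts cluster (454 to 703 CPM). Gata2 was highest in the Nts cluster (119 CPM, 80.3 to 176) and lowest in the Ptx3 cluster (32.6 CPM, 25.8 to 59.8). Sox18 was at 67.5 CPM (41.0 to 136) in the Ccl20 and Coch cluster and at 327 CPM in the Nts cluster, with no overlap between those ranges. Tal1 (medians of 37.7 to 62.1 CPM) and Erg (112 to 212 CPM) had overlapping ranges in all 6 clusters, and Sox17 had medians of 0.0 to 2.01 CPM. These are levels in clusters made from the same cells, so no test was made between them.

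**Figure D2:**
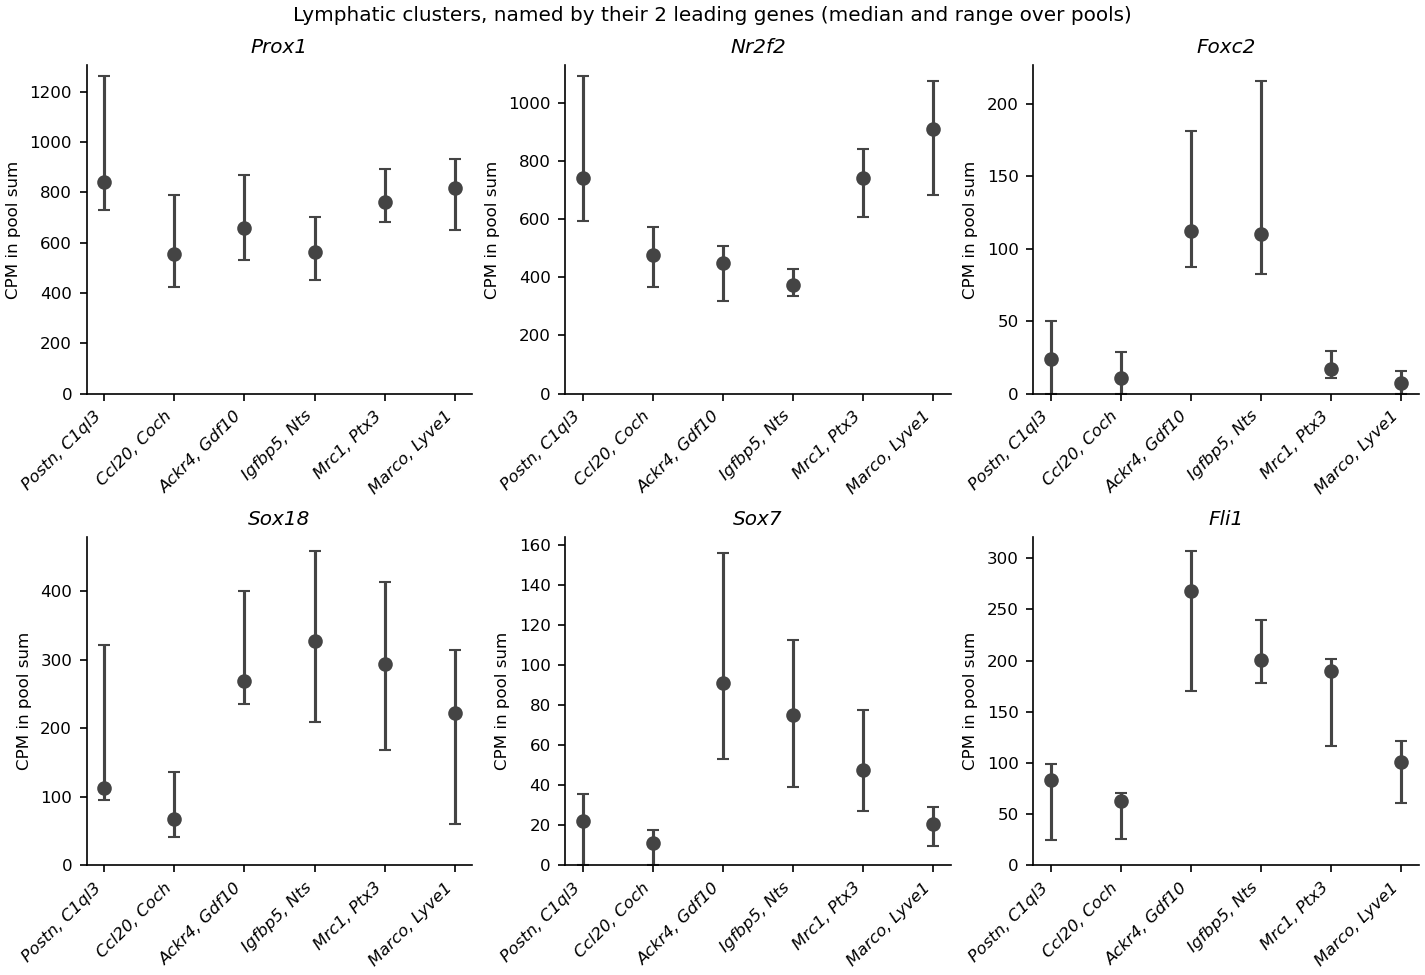
Median (point) and lowest to highest pool (bars) of 6 factors in CPM, in the 6 lymphatic clusters named by their leading genes (6 to 8 pools per cluster, linear axes from 0). Foxc2 and Sox7 are highest in the Ackr4 and Nts clusters, Nr2f2 is highest in the Marco cluster, and Sox18 and Fli1 are lowest in the Ccl20 and Coch cluster.

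Capillary clusters had different levels of Fli1 and Nr2f2, with Sox17 ranges that overlapped. Sox17 was at 425 CPM (224 to 743.5) in a cluster of 1128 cells led by the haemoglobin genes Hbb-bs and Hba-a1, and at 159 CPM (118 to 227) in the Aqp1 and Scgb3a1 cluster of 1151 cells. The 10 leading genes of the haemoglobin-led cluster also included the heat shock genes Hspa1a and Hspb1, and Sox17 itself. All 8 pools gave cells to the haemoglobin-led cluster (26 to 326 cells), but the blood cell markers, which include Hbb-bs, stood apart in 2 pools. They summed to 2937 CPM in capillary cells of the Xbp1-KO mesenteric pool of library 1 and to 239 CPM in those of its Xbp1-KO peripheral pool, against 1.61 to 8.70 CPM in the other 6 pools. Fli1 was highest in the Fabp4 and Aqp7 cluster at 389 CPM (313 to 496) and lowest in the Penk and Col13a1 cluster at 154 CPM (86.1 to 225). The same pair bounded Nr2f2, at 54.4 CPM (29.8 to 134) and 15.1 CPM (0.0 to 24.6). A cluster of 657 cells led by Atp1b1 and Nr4a1 stayed unnamed. It was nearest to capillary cells, with Sox17 at 285 CPM, Sox18 at 618 CPM and Prox1 at a median of 0.0 CPM.

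Across the 15 endothelial clusters, on the log2(CPM + 10) scale, Prox1 and Nr2f2 had a Pearson r of 0.89, Sox7 and Fli1 0.88, and Sox17 and Sox18 0.82. Prox1 and Sox17 stood opposite each other with an r of -0.95. These values describe 15 clusters that share the same 2 libraries and carry no p. Of 10133 genes with at least 200 UMIs, those close in pattern to Prox1 included Ctsk and Tbx1 (each r 0.99). Those closest to Sox17 were Stom, Ly6a and Ly6c1 (each 0.98), to Foxc2 Klrb1f (0.98), Rhou and Rassf10 (each 0.97), and to Nr2f2 Pcdh7, Cd302 (each 0.96) and Fam174b (0.95). Sox18 was closest to Pold3, Arhgap31 (each 0.95) and Tcf4 (0.94), Sox7 to 2900026A02Rik (0.96), Atp2b4 and Tgfb1i1 (each 0.94), and Fli1 to Cavin1, Gvin1 (each 0.95) and Pdcd10 (0.92). For the low or flat genes the closest values were Nr1d2 (0.95), Trappc11 (0.93) and Rbm28 (0.92) for Tal1, Atad3a (0.91), Hdac6 (0.90) and Pskh1 (0.89) for Erg, and Bod1 (0.87), Hist1h2bc (0.84) and Klf2 (0.82) for Gata2.

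Peripheral and mesenteric nodes were compared within each class, 4 pools against 4, over both genotypes. Of the 32 tests of members in lymphatic, capillary, arterial and high endothelial cells, 2 passed an edgeR adjusted p of 0.05: Nr2f2 was lower in peripheral high endothelial cells and Sox7 was higher in peripheral lymphatic cells. Too few UMIs left out Sox17 in lymphatic, Foxc2 in capillary, Prox1 and Foxc2 in high endothelial, and Prox1, Nr2f2, Foxc2 and Tal1 in arterial cells. In high endothelial cells 0.449% of 6009 genes passed, and in lymphatic cells 5.0% of 10670 genes.

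In peripheral high endothelial cells of library 1, Nr2f2 was at 66.9 CPM (WT) and 59.2 CPM (Xbp1-KO), and in those of library 2 at 38.5 and 24.9 CPM. In mesenteric pools it was at 174 and 202 CPM in library 1 and at 179 and 189 CPM in library 2. All 4 mesenteric pools were above all 4 peripheral pools, and 5.81% of the genes tested in this class separated without overlap in one direction or the other. The peripheral level was 47.4 ± 19.2 CPM (SD, n = 4) against 186 ± 12.1 CPM, a log2 difference of -1.80 ± 0.30 (SE; edgeR adjusted p = 0.00898), lower in 4 of 4 pairs of pools. Behind the peripheral values stand 7, 20, 4 and 2 UMIs from 23, 50, 12 and 12 cells, against 112 to 227 UMIs in the mesenteric pools. Peripheral high endothelial pools thus overlapped the capillary range of 19.6 to 53.3 CPM, and mesenteric ones lay just below the venous range of 210 to 329 CPM.

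Without library 1, the difference in Nr2f2 was -2.50 and did not pass (adjusted p = 0.158); without library 2 it was -1.60 (adjusted p = 3.87e-05). At a coarser clustering that merged venous with high endothelial cells it was -0.83 (adjusted p = 0.529), and in WT pools alone -1.74 (adjusted p = 0.261). The venous markers separated by tissue as well. These 8 markers summed to 2261 to 3020 CPM in peripheral and 3867 to 5218 CPM in mesenteric high endothelial pools, with no overlap and with Cytl1 at 0 in peripheral pools. The high endothelial, lymphatic and capillary lists overlapped between tissues: the 7 high endothelial markers ranged from 11373 to 190586 CPM in peripheral and from 42840 to 142496 CPM in mesenteric pools. The 6 lymphatic markers summed to 0.0 to 38.2 CPM in peripheral (Reln and Fxyd6 at 0) and 14.4 to 81.0 CPM in mesenteric pools, and the 9 capillary markers to 281 to 468 and 237 to 434 CPM. Of the lists for lymphatic subsets, the 5 markers of Ptx3 cells summed to 115 to 187 CPM in peripheral and 6.40 to 38.6 CPM in mesenteric pools, and the 7 markers of valves or collecting vessels to 971 to 1577 and 1742 to 5105 CPM, both without overlap. The part of these markers in the result was not tested.

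In peripheral lymphatic cells of library 1, Sox7 was at 53.0 CPM (WT) and 62.0 CPM (Xbp1-KO), and in those of library 2 at 81.9 and 73.5 CPM. In mesenteric pools it was at 39.3 and 32.4 CPM in library 1 and at 30.8 and 28.8 CPM in library 2. The groups did not overlap, as was so for 13.7% of the genes tested in this class. The log2 difference was 0.89 ± 0.18 (SE; edgeR adjusted p = 0.00995), at 67.6 ± 12.7 against 32.8 ± 4.55 CPM (SD, n = 4), higher in 4 of 4 pairs. It was 1.30 without library 1 and 0.52 without library 2, past the threshold in both cases, and 0.72 in WT pools alone, where it did not pass (adjusted p = 0.226).

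The makeup of the lymphatic class differed between tissues. The Ackr4 cluster, where Sox7 was highest, made up 26.1% to 39.8% of peripheral and 14.3% to 21.2% of mesenteric lymphatic cells, and the Ccl20 and Coch cluster, where it was lowest, 7.05% to 12.7% and 28.1% to 40.0%. The Nts cluster, next highest for Sox7, made up 8.96% to 14.98% of peripheral and 9.55% to 37.5% of mesenteric cells, and the Postn cluster 17.0% to 28.7% and 0.0% to 2.73%. The 5 markers of the sinus floor summed to 1917 to 4838 CPM in peripheral and 4364 to 8619 CPM in mesenteric lymphatic pools, with overlap. Without overlap were the 6 lymphatic markers, at 2883 to 3296 CPM in peripheral against 2315 to 2820 CPM in mesenteric pools. The same held for the 4 medullary markers (555 to 1022 against 1214 to 2377 CPM) and the 5 of Ptx3 cells (725 to 819 against 261 to 608 CPM). It also held for the 7 of valves or collecting vessels (3926 to 5371 against 5943 to 7883 CPM) and the 6 of tip cells (345 to 448 against 249 to 276 CPM). The part of these markers in the Sox7 difference was not tested. Within the Ackr4 cluster the Sox7 difference was 0.65 ± 0.20 (edgeR adjusted p = 0.118, where 1.81% of genes passed), and with the library as a block 0.64 ± 0.18 (adjusted p = 0.0372, where 4.72% of genes passed). Within the Nts cluster it was 0.93 ± 0.30 (adjusted p = 0.241, where 0.696% of genes passed) and 0.90 ± 0.26 with the block (adjusted p = 0.0957, 1.67% of genes). Within the Ccl20 and Coch cluster, where 5.47% of genes passed, Sox18 was lower by -0.80 ± 0.25 (adjusted p = 0.0567) and Erg higher by 0.60 ± 0.20 (adjusted p = 0.07) in peripheral nodes, and both passed with the block, as did 10.5% of genes (-0.77 ± 0.24, adjusted p = 0.0332, and 0.55 ± 0.17, adjusted p = 0.0351). These fits within clusters were added after the data had been seen.

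The ETS factors had somewhat larger values in peripheral than in mesenteric lymphatic cells in 4 of 4 pairs. Fli1 was at 155, 161, 209 and 170 CPM in the peripheral and at 129, 126, 142 and 131 CPM in the mesenteric pools (WT and Xbp1-KO of library 1, then of library 2), with no overlap. Its log2 difference was 0.31 ± 0.13 and did not pass (edgeR adjusted p = 0.182), but it passed with the library as a block (0.30 ± 0.09, adjusted p = 0.034). Erg was at 189, 206, 147 and 174 CPM against 148, 150, 102 and 130 CPM, 0.32 ± 0.14 (adjusted p = 0.199), and likewise passed with the block (0.32 ± 0.09, adjusted p = 0.0231). Without library 2, Erg passed as well (0.30, adjusted p = 0.0369). With the block 13.0% of genes passed in lymphatic cells. Prox1 was higher in peripheral pools in 4 of 4 pairs (691 to 849 against 567 to 661 CPM, no overlap), by 0.16 ± 0.11 (adjusted p = 0.473), and passed without library 2 (0.22, adjusted p = 0.0498). Nr2f2 (0.02 ± 0.12), Foxc2 (0.07 ± 0.16), Gata2 (-0.11 ± 0.18), Sox18 (-0.17 ± 0.16) and Tal1 (0.28 ± 0.17) did not pass. Nr2f2 and Tal1 were higher and Sox18 lower in 4 of 4 pairs too. How many of all genes agreed in 4 of 4 pairs was not counted, in this class or another, so such agreement describes the pools only. Over the 9 members tested in lymphatic cells the median log2 difference was 0.16, against 0.01 over all genes.

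In capillary cells 0 of 9 members passed (edgeR), with Erg at an unadjusted p under 0.05, while 0.936% of 9078 genes passed; DESeq2 called 0 of the members and 78 genes. The differences ran from -0.39 ± 0.25 for Nr2f2 to 0.40 ± 0.17 for Erg (edgeR adjusted p = 0.52, higher in 4 of 4 pairs), with a median of -0.16 against 0.00 over all genes. Sox18 was lower in peripheral pools in 4 of 4 pairs, by -0.31 ± 0.19 (adjusted p = 0.863), and passed with the library as a block (-0.31 ± 0.07, adjusted p = 0.0189, where 3.41% of genes passed). The haemoglobin-led cluster made up 10.7% to 19.2% of peripheral and 40.8% to 78.1% of mesenteric capillary cells, and without it the Sox18 difference was -0.23 ± 0.18. In arterial cells 0 of 6 members passed, 0 with an unadjusted p under 0.05 and 0 by DESeq2, while 0.201% of 4482 genes passed; the value farthest from 0 was that of Gata2 at -0.41 ± 0.23, lower in 4 of 4 pairs.

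**Figure D3:**
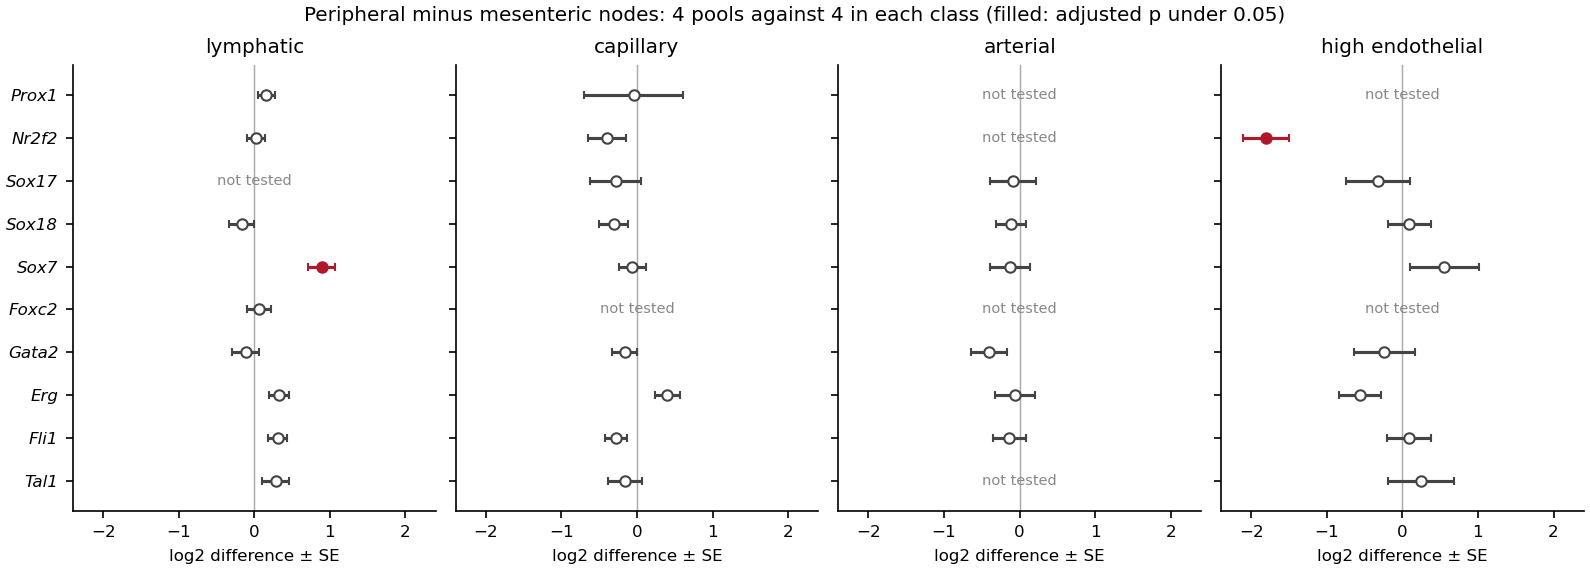
Log2 difference, peripheral minus mesenteric, of each factor in 4 classes (point, edgeR estimate; bar, 1 SE; 4 pools against 4; filled red, adjusted p under 0.05). Nr2f2 in high endothelial cells (-1.80) and Sox7 in lymphatic cells (0.89) are the filled points, and factors with too few UMIs are marked as not tested.

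**Figure D4:**
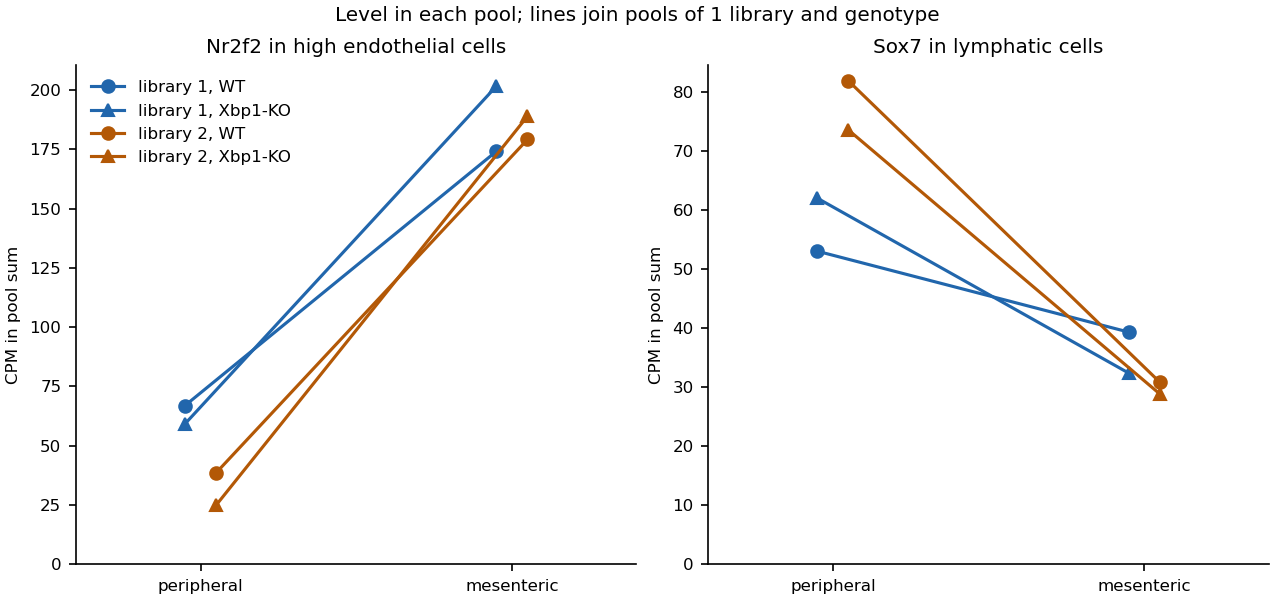
Level in CPM of Nr2f2 in high endothelial cells and of Sox7 in lymphatic cells in each of the 8 pools (linear axes from 0), with lines joining the peripheral and mesenteric pools of the same library (colour) and genotype (shape). All 4 Nr2f2 lines rise from 24.9 to 66.9 CPM in peripheral to 174 to 202 CPM in mesenteric pools, and all 4 Sox7 lines fall.

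Whether a tissue difference itself differed between classes was tested in a fit with the pool as a block, added after the data had been seen. The Nr2f2 difference in high endothelial cells was lower than that in lymphatic cells by -1.96 ± 0.31 (edgeR adjusted p = 2.77e-07, where 1.54% of 9759 genes passed) and lower than that in capillary cells by -1.39 ± 0.34 (adjusted p = 0.00507, 1.5% of 8934 genes). The Sox7 difference in lymphatic cells exceeded that in capillary cells by 0.94 ± 0.21 (adjusted p = 0.000692, 4.06% of 10842 genes), and that of Fli1 by 0.57 ± 0.17 (adjusted p = 0.0258). Erg, which was lower in peripheral high endothelial cells in 4 of 4 pairs (-0.56 ± 0.27, adjusted p = 0.616 within the class), had a difference there below that in lymphatic cells by -1.05 ± 0.29 (adjusted p = 0.0297) and below that in capillary cells by -1.08 ± 0.28 (adjusted p = 0.0113).

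Xbp1-KO and WT pools were compared in the same way, in a study whose title concerns XBP1 in high endothelial and goblet cells. None of the 32 tests of members passed (edgeR, smallest adjusted p 0.836), and 1 had an unadjusted p under 0.05. Over all genes 0.0% passed in each of the 4 classes, with 646, 215, 113 and 193 genes at an unadjusted p under 0.05 in lymphatic, capillary, arterial and high endothelial cells; DESeq2 called 11, 0, 0 and 0 genes, with no member among them. With the library as a block 98, 11, 8 and 0 genes passed, again with no member among them. In lymphatic cells the differences lay between -0.27 ± 0.16 for Foxc2 and 0.12 ± 0.12 for Nr2f2. In high endothelial cells they lay between -0.02 ± 0.29 for Fli1 and 0.52 ± 0.42 for Tal1, and Nr2f2 was 0.12 ± 0.32.

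The largest genotype difference was that of Sox7 in capillary cells. It was at 93.7 and 77.9 CPM in the WT pools of library 1 (peripheral, mesenteric) and 71.8 and 72.5 CPM in those of library 2, and at 87.3, 103, 125 and 146 CPM in the Xbp1-KO pools in the same order. The Xbp1-KO pools of library 2 were the highest and 1 Xbp1-KO pool of library 1 was below its WT pair. The log2 difference was 0.55 ± 0.18 (edgeR adjusted p = 1.0), higher in 3 of 4 pairs, and it rested on library 2: 0.98 without library 1 (adjusted p = 0.0079) and 0.15 without library 2 (adjusted p = 0.953). Without the haemoglobin-led cluster the Sox7 difference was 0.35 ± 0.19. In library 2 the WT capillary pools carried Xist at 677 and 509 CPM and the Xbp1-KO pools at 0.0 CPM, so genotype and sex cannot be told apart in the value without library 1.

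Whether the genotype difference depended on tissue was tested by the interaction, and none of the 32 tests passed (edgeR, smallest adjusted p 1.0), with 1 at an unadjusted p under 0.05. That was Sox7 in high endothelial cells, at -2.45 ± 0.89, where the pools held 2 to 86 UMIs. Over all genes 0.0% passed in lymphatic, capillary and high endothelial cells (310, 198 and 208 at an unadjusted p under 0.05; DESeq2 called 2, 0 and 0) and 0.0892% in arterial cells.

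**Figure D5:**
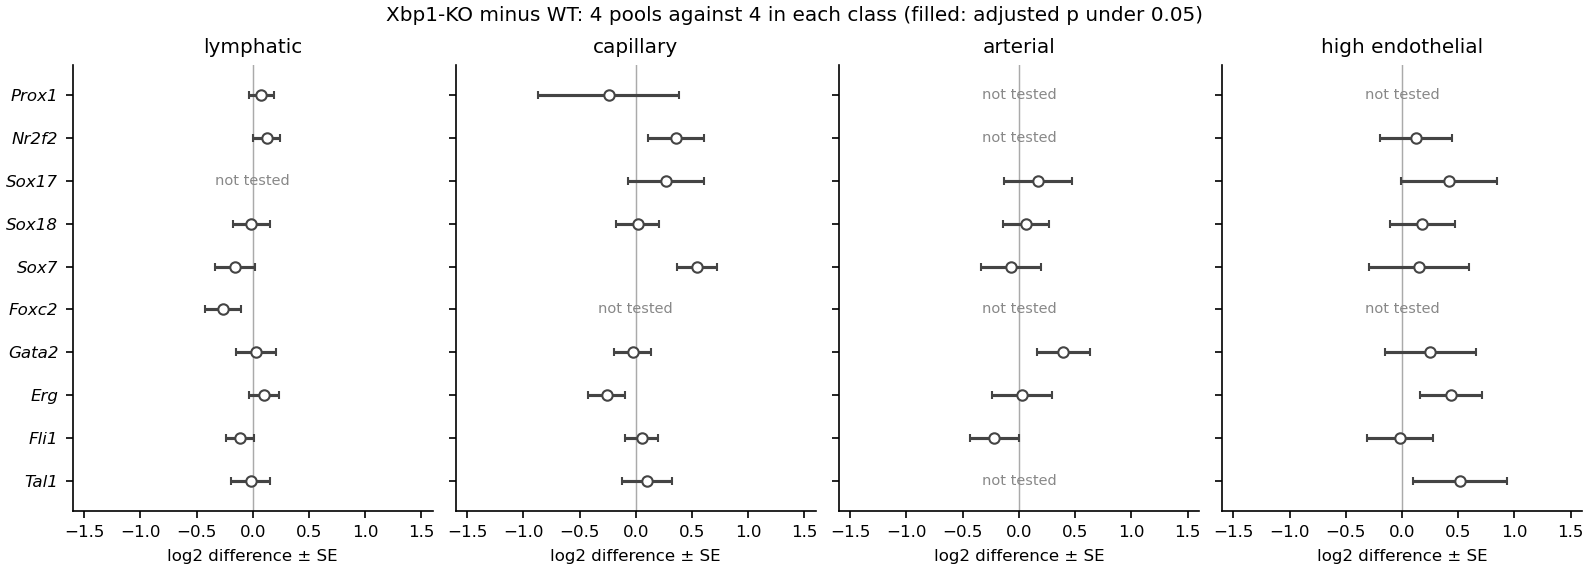
Log2 difference, Xbp1-KO minus WT, of each factor in 4 classes (point, edgeR estimate; bar, 1 SE; 4 pools against 4; a filled point would mark an adjusted p under 0.05). All points are open, and the point farthest from 0 is that of Sox7 in capillary cells at 0.55.

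Other regulators of the same vessels were counted for context: 42 further endothelial transcription factors and 32 endothelial genes described as targets of the 10. In lymphatic cells 5 of 36 factors tested differed between tissues (3 higher and 2 lower in peripheral nodes) and 6 of 29 targets (3 and 3), against 5.0% of all genes. Higher in peripheral nodes, as log2 difference ± SE, were the forkhead gene Foxc1 (0.67 ± 0.15) and Hhex (0.55 ± 0.13) among the factors, and among targets Reln (0.98 ± 0.18), the arterial ligand Efnb2 (0.72 ± 0.12) and Notch1 (0.46 ± 0.12). Lower were Id1 (16.3 ± 1.65 against 35.4 ± 16.8 CPM, SD, n = 4) and Id3 (-0.54 ± 0.13), inhibitors of basic helix-loop-helix factors, and the targets Vwf (-3.72 ± 0.41) and Flt1 (-1.12 ± 0.29). Ccl21a passed as well (-1.80 ± 0.49), lower in 3 of 4 pairs: it was at 45.1, 145, 40.9 and 100 CPM in peripheral and at 191, 357, 493 and 31.2 CPM in mesenteric pools, and with the alternative hashtag call its difference was -0.10 (adjusted p = 0.945). The edgeR adjusted p of the genes named here ran from 0.000194 for Vwf to 0.0487 for Ccl21a. Without library 1, Foxc1 (0.47), Hhex (0.64), Id3 (-0.55), Efnb2 (0.62), Notch1 (0.46) and Reln (0.62) did not pass, and without library 2 Id1 (-0.57) did not. Vwf was at -4.76 without library 1 and -3.13 without library 2, Flt1 at -1.88 and -0.93, and Ccl21a at -1.06 and -1.75. With the alternative hashtag call Flt1 was at -0.60. The median log2 difference was 0.10 over the factors and 0.03 over the targets.

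In the blood endothelium the homeobox gene Nkx2-3, known from vessels of the gut and its nodes, was the clearest of the further factors. Nkx2-3 was counted with 0 UMIs in all 4 peripheral high endothelial pools (626652 UMIs in all) and with 48, 67, 43 and 95 UMIs in the mesenteric ones. The mesenteric level of 72.1 CPM is at least 15.1-fold higher than the limit of 3 counts over the peripheral pools. In capillary cells 1 UMI stood against 295. In arterial cells Nkx2-3 was at 0 in 3 peripheral pools and at 73.6 CPM (6 UMIs) in the WT pool of library 2, against 49.8 to 117 CPM in mesenteric pools. It passed the edgeR test in the 3 classes (adjusted p = 0.000693 in high endothelial, 1.08e-05 in capillary and 0.0164 in arterial cells), and in high endothelial and arterial cells it was the 1 factor to do so, of 32 and 30 tested. Without library 1 it did not pass in high endothelial (adjusted p = 0.197) or arterial cells (-1.77, adjusted p = 0.254).

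In capillary cells 3 of 35 further factors passed, against 0.936% of all genes: Nkx2-3, Mef2c (0.94 ± 0.19, adjusted p = 0.0335) and Hey2 (2.63 ± 0.53, adjusted p = 0.0305), both higher in peripheral nodes. Hey2 was at 2.11 without library 2, where it did not pass, and at 3.88 without library 1. Mef2c is among the 10 leading genes of the Penk and Col13a1 cluster, which made up 18.2% to 34.1% of peripheral and 0.929% to 2.13% of mesenteric capillary cells, and the part of that makeup in its difference was not tested. Of the targets, Vwf passed in capillary cells (-2.51 ± 0.28, adjusted p = 0.000375, of 30 tested) and none of 26 in arterial or high endothelial cells. Between genotypes 0 of the further factors and 0 of the targets passed in any of the 4 classes (edgeR), with 4, 4, 1 and 2 factors and 2, 0, 0 and 2 targets at an unadjusted p under 0.05 in lymphatic, capillary, arterial and high endothelial cells.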

How the data were processed

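Counts are the deposited whole-number UMI counts per gene and barcode. Per the file headers the authors made them with Cell Ranger 6.0.1; the submitters' processing notes name Cell Ranger 6.1 and mm10. The kit is given as 2 versions in the labels' protocols, and the annotation and strand setting are not given in the sources used here. Of the gene IDs 99.8% were found in GENCODE M21 (GRCm38), which gave the coordinates. Hashtags were called with HTODemux (Seurat 5.3.0, quantile 0.99). Filters kept barcodes with 1 tag, 500 or more genes and no more than 10% of UMIs from mitochondria, and Scrublet removed 65 and 4 doublets (it marked 25.5% and 4.62% of the barcodes with more than 1 tag, so doublets within a pool may remain). Cells were clustered in scanpy 1.11.5 (1996 variable genes without the 10 members, 30 components, Leiden resolution 1). A cluster took the class with the highest marker score unless its leading genes held more markers of another class or none, in which case it was renamed (1 cluster) or left unnamed (2 clusters).

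UMIs were summed per pool and class (at least 5 cells) and tested with edgeR 4.0.16 (TMM, filterByExpr, quasi-likelihood, Benjamini-Hochberg over all genes tested); standard errors were derived from the F statistic. Sums held 80331 to 6548025 UMIs. Each library is 1 shared capture of all 4 pools, so the library pairs the pools. Same-library deviations correlated at 0.06 to 0.23 in lymphatic and 0.12 to 0.38 in capillary cells. The range was 0.11 to 0.26 in arterial and 0.02 to 0.22 in high endothelial cells. Peripheral and mesenteric pools of the same genotype correlated most in lymphatic (0.22 WT, 0.23 Xbp1-KO) and high endothelial cells (0.19, 0.22). Other pairs reached at most 0.12 and 0.05 there. In capillary cells these values were 0.28 and 0.38 against at most 0.22. In arterial cells they were 0.21 and 0.26 against at most 0.25. Neither the reported test nor the library block models this pairing by genotype, and its cause was not tested. DESeq2 1.42.0, no filter on low counts, a hashtag ratio call, a coarser clustering, WT pools alone, each tissue alone and each library left out were alternatives. Intervals cover counting error only. All 10 members and both further lists are named by rule: a further gene is named where it passed, at most 5 per direction. Some genes that these rules would name are not reported here. The members and lists were chosen with earlier results of these data known.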

Additional observations from a re-analysis of the deposited data

Results flagged for a closer look

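These results stand out because a tissue difference (peripheral minus mesenteric, log2) differed between 2 endothelial classes by a test of the difference itself. For Nr2f2 the difference in high endothelial cells minus that in lymphatic cells was -1.96, and minus that in capillary cells -1.39. For Erg the same differences were -1.05 and -1.08. For Sox7 the difference in lymphatic minus that in capillary cells was 0.94, and for Fli1 it was 0.57. The 3 classes came from the same 8 pools. The makeup of lymphatic and capillary cells by cluster differed between tissues, and its part in these values was not tested.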

How the results depend on the processing

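The Sox7 difference between tissues in lymphatic cells kept its sign and passed in 7 of 8 alternatives run, from 0.52 to 1.30 with a library left out; in WT pools alone it was 0.72 and did not pass. The Nr2f2 difference in high endothelial cells kept its sign in all 8, from -2.50 to -1.60 with a library left out; it did not pass without library 1, at the coarser clustering (-0.83) or in WT pools alone (-1.74). Members past the threshold between tissues in lymphatic cells numbered 1, but 3 with the replicate block, 0 in WT pools alone, and 1 to 3 with a library left out. In capillary cells the count was 0, and 1 with the block. In high endothelial cells it was 1, but 0 at the coarser clustering, 0 in WT pools alone and 0 to 1 with a library left out. Between genotypes in capillary cells it was 0, and 0 to 1 with a library left out. The block changed no other call of a member in a whole class, and gave 3 more within lymphatic clusters (Sox7 in the Ackr4 cluster, Sox18 and Erg in the Ccl20 and Coch cluster).

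Over all genes, calls between tissues ranged over the alternatives from 98 to 1492 in lymphatic cells (534 as reported, 1387 with the block), from 11 to 310 in capillary (85), from 2 to 58 in arterial (9) and from 1 to 111 in high endothelial cells (27, 52 with the block). Calls between genotypes numbered 98, 11, 8 and 0 with the block, in the same order of classes. They were highest with a library left out, library 2 in lymphatic and high endothelial and library 1 in capillary and arterial cells. Within 1 library genotype and Xist go together, so those calls cannot be told from sex. Interaction calls reached 25, 3, 27 and 1 (15, 3, 27 and 0 with the block). Of the further factors and targets named, Ccl21a, Foxc1, Hhex, Notch1 and arterial Nkx2-3 did not pass with DESeq2, and Ccl21a, Flt1, Id1, Id3 and Hey2 did not pass with the hashtag ratio call. In WT pools alone Vwf, Reln and capillary Nkx2-3 passed and the other factors and targets named did not; arterial Nkx2-3 was then at -1.40. Of 210 median levels recomputed, 202 stayed within 1 SD. Peripheral high endothelial sums of 12 cells limit what could be detected there, and alternatives with a library left out assume the remaining pools vary alike.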
